A study of Mus musculus with 9 samples.

Results

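Cystatins and stefins are small proteins that block the papain family of cysteine proteases. They were described here as 7 genes (Cst3, Cstb, Cst6, Cst7, Stfa1, Stfa2 and Stfa3), found by gene symbol among the 21930 gene identifiers of a deposited RNA sequencing table of mouse nasal mucosa. All 7 were in the table. The samples were 9 poly(A) libraries of WT mice in 3 groups of 3. The papain+MSC-Exos group received 20 µg of papain in 20 µl of PBS into the nose on days 0 to 2 and again on days 7 to 11, together with exosomes of mesenchymal stem cells on days 7 to 11. The papain group, which the submitters call a model of eosinophilic chronic rhinosinusitis, received the same papain with PBS in place of exosomes. The control group is labelled as having no treatment. Mice were killed on day 12. The labels give no age or strain and do not say whether the libraries stem from different mice, so the p-values reflect variation among libraries that could be technical in part or in whole.

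A cystatin plugs the active site cleft of its target with a wedge made of the start of the protein and a pair of hairpin loops, and binds without being cut. The targets in tissue are the lysosomal cathepsins, which degrade proteins and process antigens, and for some cystatins legumain, an asparaginyl endopeptidase of the same compartment. Papain, the plant enzyme given to these mice, is the protease after which the target family is named. Cystatin C (Cst3) is secreted by most cells, stefin B (Cstb) works in the cytosol and nucleus, cystatin E/M (Cst6) acts in cornified epithelium and cystatin F (Cst7) is made by leukocytes. Stefin A exists in mice as several neighbouring gene copies, of which Stfa1, Stfa2 and Stfa3 are expressed in the neutrophil lineage and in skin.

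The first hairpin loop carries the signature of the family, and it is shown because it is the stretch that places all 7 genes among inhibitors of papain-like enzymes. The coding bases below come from GENCODE M21 transcripts (GRCm38), read 5′ to 3′ on the coding strand. Capitals mark the 15 bases that code for glutamine, any residue, valine, any residue and glycine.
Cst3: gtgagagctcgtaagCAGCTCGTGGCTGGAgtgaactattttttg
Cst6: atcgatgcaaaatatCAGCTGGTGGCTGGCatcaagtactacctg
Cst7: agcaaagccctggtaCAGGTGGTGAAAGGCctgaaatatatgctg
Cstb: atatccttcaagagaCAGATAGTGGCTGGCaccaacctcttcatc
Stfa1: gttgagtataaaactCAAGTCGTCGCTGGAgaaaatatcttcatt
Stfa2: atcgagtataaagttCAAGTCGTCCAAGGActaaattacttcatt
Stfa3: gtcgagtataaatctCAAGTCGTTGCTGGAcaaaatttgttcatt

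The motif occurred once in the coding sequence of each gene. Cst3 and Cst7 lie on the same chromosome, at chr2:148871722-148875692 on the minus strand and chr2:150570415-150578944 on the plus strand. Cst6 lies at chr19:5344705-5349574 on the minus strand and Cstb at chr10:78425669-78427622 on the plus strand. The 3 stefin A copies lie together, at chr16:36276951-36285373 (Stfa1, plus strand), chr16:36403992-36408457 (Stfa2, minus strand) and chr16:36450537-36455392 (Stfa3, minus strand). The 45 bases shown are from coding exons, and those of Cst3, Cst6 and Cst7 are joined across an intron. Aligned over their coding sequences, the stefin A copies were alike at 80.9% of positions for Stfa2 and Stfa3, 79.6% for Stfa1 and Stfa3 and 74.4% for Stfa1 and Stfa2. Cstb matched them at 52.1% to 57.5% of positions. Of the 50-base stretches in the transcripts of Stfa1, 22.5% also occur in 2 other genes, and of those of Stfa2, 15.9% occur in 3 other genes. How the authors' counting assigned reads that fit several copies is not stated, so the values of the stefin A copies are uncertain. Cst3, Cstb, Cst6, Cst7 and Stfa3 shared no such stretch with another gene.

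Levels are in FPKM, fragments scaled by transcript length and by the mapped fragments of the library, as deposited. FPKM is relative to all fragments of a library, and the 15 most abundant genes held 15.99% to 34.2% of the length-weighted FPKM in papain+MSC-Exos libraries, 34.1% to 51.4% in papain libraries and 49.7% to 52.5% in control libraries. Values were therefore also divided by median-of-ratios size factors, which set the typical gene level across libraries, and are then called scaled FPKM. The factors were 1.18 to 1.75 in papain+MSC-Exos, 0.710 to 1.07 in papain and 0.763 to 0.765 in control libraries. Papain replicate 2 had a share of 51.4% in its top 15 genes, inside the control range, and papain+MSC-Exos replicate 3 had 34.2%, inside the papain range. Depth was roughly 15.2 M to 24.9 M (mega, M) fragments per library, estimated from the spacing of low values. Marker genes of nasal mucosa were present in every library, led by Bpifa1, a secreted protein of airway epithelium, at 3491 to 5487 FPKM in papain+MSC-Exos, 2656 to 4447 FPKM in papain and 1833 to 3272 FPKM in control libraries, and by Cyp2g1, an olfactory cytochrome P450, at 491 to 861, 254 to 656 and 330.1 to 413 FPKM in the same order of groups.

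Markers of olfactory neurons within that list of 9 did not follow Cyp2g1 on the scaled values, and are named after their values were seen. Cyp2g1 had means of 475, 474 and 491 scaled FPKM in papain+MSC-Exos, papain and control libraries. Omp, the olfactory marker protein, had 343.6, 463.1 and 256.4 scaled FPKM in papain+MSC-Exos libraries, 209.7, 110.6 and 144.1 in papain libraries and 278.8, 336.5 and 231.1 in control libraries. Every papain library was below every other library. Cnga2, a subunit of the olfactory transduction channel, and Adcy3, its adenylyl cyclase, were lower in papain against control after scaling (-1.05, adjusted p = 0.0188, and -0.95, adjusted p = 0.0330, with limma), and Omp, at -0.89, was not called (adjusted p = 0.0637). As deposited none of the 3 was called in that comparison, and the scaled calls of Cnga2 and Adcy3 were lost without any 1 of the 3 control libraries, papain replicate 2 or papain replicate 3 (adjusted p up to 0.0686 and 0.108). With no filter on low values only 1 of the 9 markers was lower there after scaling. Omp, Cnga2 and Adcy3 were all higher in papain+MSC-Exos against papain on both scales, by 1.20, 0.99 and 1.27 after scaling (adjusted p = 0.0112, 0.0127 and 0.00620, with limma), and these calls held with any single library left out. Epcam, an epithelial adhesion molecule, went the other way after scaling, higher in papain against control by 0.59 (adjusted p = 0.00218) and lower in papain+MSC-Exos against papain (-0.33, adjusted p = 0.0156), the second call being lost without papain replicate 3 or papain+MSC-Exos replicate 2. The part of these tissue markers in the cystatin and protease values was not tested.

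Cystatin expression in this tissue came almost wholly from a pair of genes, the secreted Cst3 and the cytosolic Cstb. Cst3 made up 62.7% ± 1.22 of the summed FPKM of the 7 genes in papain+MSC-Exos libraries, 61.2% ± 1.47 in papain libraries and 62.4% ± 1.89 in control libraries (SD, n = 3 each). Cstb made up 36.8% ± 1.28, 38.3% ± 1.46 and 37.2% ± 1.94 in the same groups. These shares do not depend on the scaling of a library. Cst6 held 0.308% to 0.336% on average and Cst7 0.0726% to 0.156%, while the stefin A copies were listed at 0 in most libraries.

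**Figure D1:**
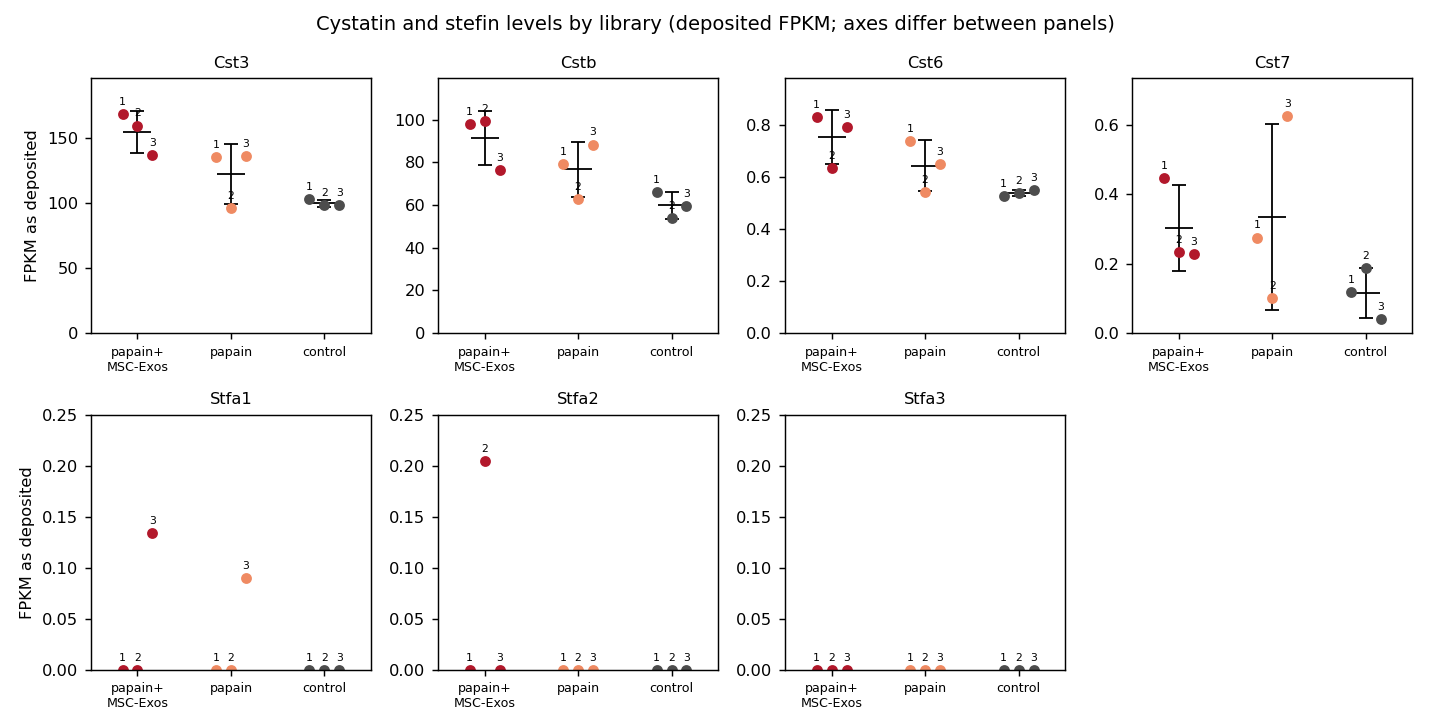
Deposited FPKM (y axis, from 0, a different range in each panel) of the 7 genes in papain+MSC-Exos, papain and control libraries; points are libraries numbered by replicate, and bars are the mean ± SD where no library of the group is at 0. Cst3 and Cstb lie above 50 FPKM in every library, Cst6 and Cst7 below 1 FPKM, and Stfa3 is at 0 in all 9 libraries.

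Cst3, cystatin C, had 168.6, 160.0 and 137.2 FPKM in papain+MSC-Exos libraries, 135.6, 96.0 and 136.8 FPKM in papain libraries and 103.3, 98.5 and 98.6 FPKM in control libraries. On this scale every papain+MSC-Exos library was above every papain and control library, and papain replicate 2 lay below all 3 controls. After scaling, Cst3 had 96.6, 100.3 and 116.6 in papain+MSC-Exos libraries, 126.9, 135.2 and 140.9 in papain libraries and 135.1, 129.2 and 128.8 in control libraries. On the scaled values every papain+MSC-Exos library was below every other library, while papain and control overlapped. The rank of Cst3 among all genes of a library, which no scaling can move, was 222 to 237 with papain+MSC-Exos, 219 to 233 with papain and 211 to 234 in controls, so the ranks of the 3 groups overlapped.

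Cstb, stefin B, had 97.8, 99.4 and 76.6 FPKM in papain+MSC-Exos libraries, 79.1, 62.7 and 88.3 FPKM in papain libraries and 66.3, 53.7 and 59.6 FPKM in control libraries. The papain+MSC-Exos libraries all lay above the controls, and those of papain overlapped both other groups. After scaling the values were 56.0, 62.3 and 65.1 in papain+MSC-Exos libraries, 74.0, 88.3 and 90.9 in papain libraries and 86.7, 70.4 and 77.9 in control libraries. Here the papain+MSC-Exos libraries were again all below the others. Its rank among all genes was 364 to 402, 322 to 365 and 323 to 376 in the same order of groups. The ratio of Cst3 to Cstb within a library was 1.71 ± 0.0919 in papain+MSC-Exos, 1.60 ± 0.101 in papain and 1.68 ± 0.140 in control libraries (SD, n = 3 each), differences within the spread between replicates.

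**Figure D2:**
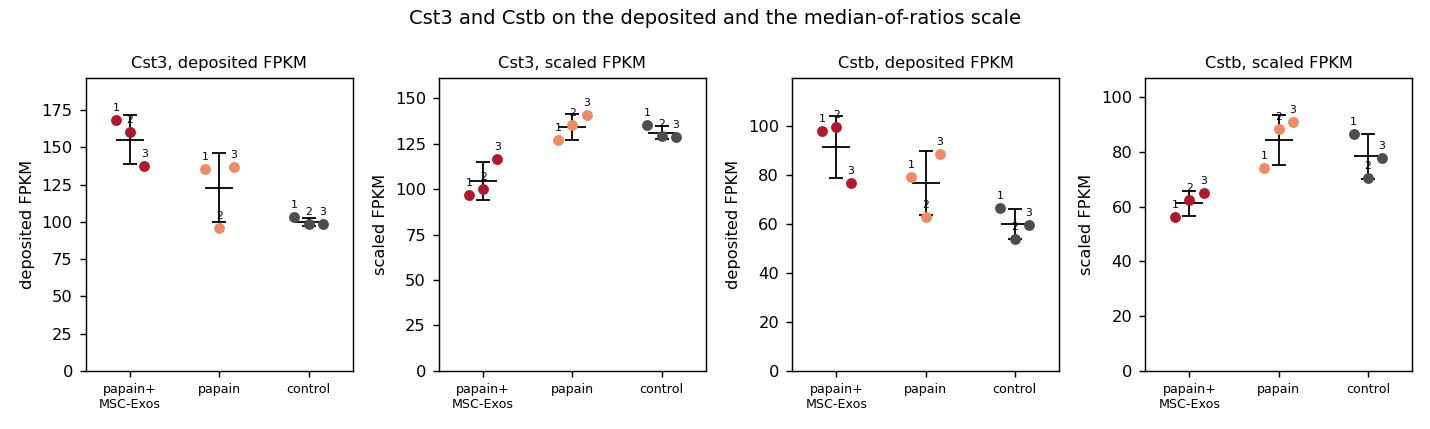
Cst3 and Cstb in each library as deposited FPKM and as median-of-ratios scaled FPKM (y axes from 0), with papain+MSC-Exos left, papain in the middle and control right; points are libraries numbered by replicate and bars the mean ± SD. The papain+MSC-Exos libraries are the highest for Cst3 as deposited, at 137.2 to 168.6, and the lowest after scaling, at 96.6 to 116.6.

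Papain against control compares nasal papain in PBS with a group labelled as having no treatment. Effects of papain, of PBS and of repeated instillation therefore cannot be told apart in any comparison with control. Neither Cst3 nor Cstb passed the test. Changes are differences of mean log2(FPKM + 1) with limma and Benjamini-Hochberg adjustment over all genes tested, and a gene is called at an adjusted p below 0.05. As deposited, Cst3 differed by 0.27 (SE 0.19, adjusted p = 0.477) and Cstb by 0.34 (SE 0.19, adjusted p = 0.381), beside a median of 0.19 over all 12738 genes tested. After scaling the differences were 0.035 (95% confidence interval -0.18 to 0.25, adjusted p = 0.849) for Cst3 and 0.11 (-0.15 to 0.36, adjusted p = 0.598) for Cstb. Thus 0 of the 2 tested members were called on either scale by limma, and 0 had an unadjusted p below 0.05, against 3.52% of all genes called as deposited and 9.92% (5.77% higher) of 12507 after scaling. Changes within those intervals, in either direction, remain compatible with these values, and the intervals are not limits of detection.

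Papain+MSC-Exos against papain addresses the exosome treatment. As deposited, neither gene was called, at 0.35 for Cst3 (SE 0.19, adjusted p = 0.112) and 0.25 for Cstb (SE 0.19, adjusted p = 0.245), where 63.7% of all genes were called and the median over all genes was 0.56. After scaling, both fell: Cst3 by 0.36 on the log2 scale (SE 0.10, adjusted p = 0.0207) and Cstb by 0.46 (SE 0.11, adjusted p = 0.0166), with limma, where 29.5% of all genes were called and 16.2% were lower. On both scales the values of Cst3 and Cstb lay below the median of all genes, -0.0059 scaled and 0.56 as deposited. Scaling divides all genes of a library by the same factor, so the scales are not separate evidence of a fall relative to the typical gene. The ranks given above, which no scaling can move, overlapped between these groups for both genes. The scaled calls rest on single libraries: without papain replicate 2, papain replicate 3 or papain+MSC-Exos replicate 1 neither gene was called, and without papain+MSC-Exos replicate 2 only 1 was.

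Papain+MSC-Exos against control gave calls of opposite sign on the 2 scales. As deposited, Cst3 was higher by 0.62 (SE 0.19, adjusted p = 0.00616) and Cstb by 0.60 (SE 0.19, adjusted p = 0.00879), where 84.8% of all genes were called, 84.3% higher, and the median over all genes was 0.76. After scaling, Cst3 fell by 0.33 (SE 0.10, adjusted p = 0.0320) and Cstb fell by 0.35 (SE 0.11, adjusted p = 0.0447), where 27.9% of all genes were called and 15.6% were lower. Both deposited values lie below the median of all genes, so the rise as deposited was smaller than that of the typical gene. The deposited calls held with any single library left out, at adjusted p of 0.00102 to 0.0476 with limma. The scaled calls were lost for both genes without control replicate 1, control replicate 3, papain+MSC-Exos replicate 1 or papain+MSC-Exos replicate 2, and for 1 of them without control replicate 2, papain replicate 2 or papain replicate 3. The comparison shares its exosome libraries with the preceding one, so the values are not separate evidence.

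**Figure D3:**
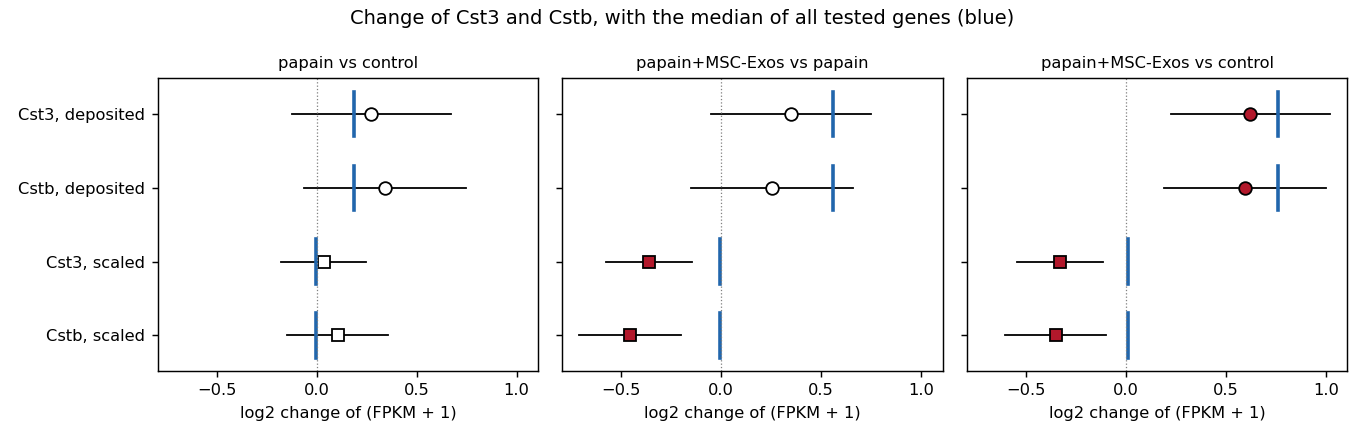
Difference of mean log2(FPKM + 1) for Cst3 and Cstb (x axis) in the 3 comparisons, with 95% confidence intervals; circles are deposited and squares scaled values, filled where the adjusted p is below 0.05, and blue bars are the median of all tested genes. With exosomes the 2 genes lie right of 0 as deposited and left of 0 after scaling, and left of the blue bar on both scales.

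The other 5 genes did not reach 1 FPKM in 3 libraries. They were tested only in a fit with no filter over 19887 genes, except Stfa3, which was at 0 in every library and was not tested. Cst6, cystatin E/M, an inhibitor of legumain and of cathepsins in skin and hair follicles, had 0.833, 0.636 and 0.795 FPKM in papain+MSC-Exos libraries, 0.740, 0.542 and 0.653 FPKM in papain libraries and 0.529, 0.539 and 0.550 FPKM in control libraries. As deposited the exosome libraries lay above the controls, and papain overlapped the exosome libraries. After scaling the values were 0.477, 0.398 and 0.676 with papain+MSC-Exos, 0.693, 0.764 and 0.672 with papain and 0.692, 0.707 and 0.718 in controls, with papain+MSC-Exos below control and overlapping papain at 1 library. Neither difference was called by limma: papain+MSC-Exos minus papain was -0.18 (adjusted p = 0.129) after scaling, where 15.7% of all genes were called, and papain+MSC-Exos minus control was 0.19 as deposited (adjusted p = 0.0690) and -0.17 after scaling (adjusted p = 0.138), where 61.3% and 14.4% of genes were called. These levels stand for about 36.7 to 63.8 fragments per library by the rough depth estimate. The 1 added before the log2 shrinks differences of genes below 1 FPKM, so those of Cst6 are not comparable in size with those of Cst3 and Cstb. The scaled means of Cst6 were 0.517 with papain+MSC-Exos, 0.710 with papain and 0.706 in controls.

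Beside Cst6, the 14 markers of cornified squamous epithelium summed to 47.1 to 54.1 FPKM in papain+MSC-Exos, 53.5 to 70.0 FPKM in papain and 23.5 to 55.4 FPKM in control libraries as deposited. After scaling they summed to 28.2 to 46.0, 50.1 to 98.6 and 30.8 to 72.5 in the same order, so that the exosome libraries lay below all papain libraries and the order of the group means of exosomes and control, 50.2 and 39.8 as deposited, turned to 34.6 and 52.1. None was at 0 in every library. Krt6a, a keratin of stressed epithelium, led them at 12.5 to 15.5, 18.1 to 24.4 and 6.19 to 14.7 FPKM in the same order, followed by Krt13, a keratin of mucosal squamous epithelium. With no filter, 0 of the 14 rose in papain against control as deposited and 1 after scaling. In papain+MSC-Exos against papain 0 fell as deposited and 3 after scaling in that fit, where 42.4% and 15.7% of all genes were called in either direction. With the filter 9 were tested. Krt6a and Krt16, its keratin partner, rose in papain against control as deposited, and Krt16 did after scaling, where 3.01% and 5.77% of all genes were higher. Both fell in papain+MSC-Exos against papain on both scales, where 16.2% of all genes were lower after scaling. As deposited 63.7% of all genes were called in that comparison, and 63% were higher. Sbsn, suprabasin, was higher there as deposited, as were 63% of all genes, and not called after scaling. These called markers other than Krt6a were named after their values were seen, as were those of the other cell types below. Their part in the Cst6 values was not tested. In bulk tissue, fewer cells of a type and less RNA per cell cannot be told apart.

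Cst7, cystatin F, which is delivered to the endolysosomes of leukocytes and restrains cathepsin C there, had 0.445, 0.234 and 0.227 FPKM in papain+MSC-Exos libraries, 0.275, 0.101 and 0.625 FPKM in papain libraries and 0.118, 0.187 and 0.0415 FPKM in control libraries. The exosome libraries lay above the controls as deposited, and papain replicate 3 was the highest of all. After scaling the values were 0.255, 0.147 and 0.193 with papain+MSC-Exos, 0.257, 0.142 and 0.644 with papain and 0.155, 0.245 and 0.0542 in controls, so that the 3 groups overlapped. It was called in no comparison on either scale by limma with no filter, where the shares of all genes called were 1.04% as deposited and 6.11% after scaling in papain against control, and 42.4% and 15.7% in papain+MSC-Exos against papain. The values stand for about 1.02 to 14.7 fragments, and the 1 added before the log2 shrinks differences at such levels. Whether either kept a change of Cst7 from being called was not tested.

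Leukocyte markers were examined beside Cst7. Cytotoxic lymphocyte markers (10 genes, none at 0 in all libraries) summed to 3.997 to 10.8 FPKM in papain+MSC-Exos, 3.45 to 3.96 FPKM in papain and 1.98 to 3.19 FPKM in control libraries as deposited. After scaling they summed to 3.398 to 6.75, 3.50 to 4.86 and 2.59 to 4.19, with all 3 groups overlapping. They were led by the chemokine Ccl5 at 1.47 to 5.59, 0.783 to 1.37 and 0.661 to 0.920 FPKM, with Gzma, a granule protease, next. Of these 10, 2 were tested; both were higher as deposited in papain+MSC-Exos against control, where 84.3% of all genes were, and neither was called after scaling. Macrophage markers (10 genes) summed to 104.4 to 151.0, 63.6 to 97.4 and 45.9 to 47.1 FPKM in the same groups as deposited, and to 86.5 to 93.3, 77.2 to 100.2 and 59.9 to 61.6 after scaling, where exosome and papain libraries overlapped and both lay above control. They were led by the complement components C1qa, at 27.5 to 43.0, 17.3 to 25.9 and 9.60 to 10.1 FPKM, and C1qb. Of 9 tested macrophage markers, C1qa, C1qc and Mrc1, the mannose receptor, were higher in papain against control on both scales. Of all genes, 3.01% were higher as deposited and 5.77% after scaling. With no filter, 1 of the 10 markers was higher as deposited and 3 after scaling. Set against papain, papain+MSC-Exos had 8 higher and Mrc1 lower as deposited, where 63% of all genes were higher, and after scaling Fcgr1, an Fc receptor, higher and Mrc1 lower. Set against control, it had 8 of the 9 higher as deposited, close to the 84.3% of all genes, and 8 higher with Mrc1 lower after scaling. Of all genes, 12.3% were higher and 15.6% lower after scaling. In the fit with no filter, 8 of the 10 markers were higher as deposited and 5 after scaling, and the scaled Mrc1 call was lost. Their part in the Cst7 and cathepsin values was not tested.

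Stfa1, Stfa2 and Stfa3 were close to undetected, although other stefin genes of the same cluster on chromosome 16 were detected. Stfa1 was listed at 0 in 7 of the 9 libraries and had 0.134 FPKM in papain+MSC-Exos replicate 3 and 0.0899 FPKM in papain replicate 3. Stfa2 had 0.205 FPKM in papain+MSC-Exos replicate 2 and was listed at 0 elsewhere, and Stfa3 was listed at 0 in all 9. A single fragment would be worth roughly 0.0567 to 0.0925 FPKM for Stfa1, 0.0854 to 0.139 FPKM for Stfa2 and 0.0977 to 0.159 FPKM for Stfa3, so the listed values stand for about 2 fragments at most. Of their neighbours, which are named after their values were seen, BC100530 had 0.360, 0.763 and 0.565 FPKM in papain+MSC-Exos libraries, 0.619, 0.620 and 0.385 FPKM in papain libraries and 0.479, 0.0780 and 0.572 FPKM in control libraries. Stfa2l1 and Gm5483 were each above 0 in 7 of the 9 libraries, at up to 0.674 and 0.571 FPKM, and BC117090 in 1 library. None of these 4 genes was called by limma in the fit with no filter in any comparison on either scale, and Gm5483 had an unadjusted p below 0.05 in 3 of its tests. The 13 neutrophil markers summed to 768.9 to 1254 FPKM in papain+MSC-Exos, 431.7 to 617.7 FPKM in papain and 207.6 to 249.2 FPKM in control libraries as deposited. After scaling they summed to 578.5 to 718.5, 514.4 to 635.9 and 271.3 to 326.0, with exosome and papain libraries overlapping above control. That sum was mostly Ltf, lactoferrin, which glandular epithelium also makes, at 656 to 1146, 380.4 to 504 and 178 to 219 FPKM. Some other markers of the list were low or overlapped between the groups. Ly6g was at 0 in control replicates 1 and 2 and papain replicate 2, and reached 0.366 FPKM at most. Camp had scaled means of 1.58, 1.21 and 1.78 and Ngp of 2.96, 2.69 and 2.41 in the same order of groups. S100a9, an abundant protein of neutrophils and other myeloid cells, had 35.8, 41.9 and 49.5 FPKM in papain+MSC-Exos, 37.5, 19.3 and 48.3 FPKM in papain and 11.1, 20.3 and 10.8 FPKM in control libraries. Of the neutrophil markers tested, 5 of 11 as deposited (S100a8, S100a9, Retnlg, Ltf and Il1r2) and 5 of 10 after scaling (Csf3r in place of S100a9) were higher in papain against control. Of all genes, 3.01% and 5.77% were. With no filter, 2 of the 13 markers were higher as deposited and 4 after scaling. In papain+MSC-Exos against control 10 of 11 were higher as deposited, close to the 84.3% of all genes, and 3 of 10 (S100a8, Csf3r and Ltf) after scaling, where 12.3% of all genes were. The fit with no filter had 10 of the 13 markers higher as deposited and 2 after scaling. Their part in the stefin A values was not tested.

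The proteases that these inhibitors bind were described from a list of 11 genes, the cysteine cathepsins and legumain, all of them in the table and 10 of them tested. In papain against control, Ctss, cathepsin S of antigen-presenting cells, was the only one called, higher by 0.82 as deposited (SE 0.22, adjusted p = 0.0454), where 3.01% of all genes were higher, and at 0.59 after scaling it was not called (adjusted p = 0.0541). The deposited call of Ctss was lost in the fit with no filter, where 0 of 11 proteases were called. It was not examined with 1 library left out. With exosomes added to papain 7 of 10 were higher as deposited, where 63% of all genes were. After scaling none was higher, where 13.4% of all genes were, and Ctsc, cathepsin C, which activates granule serine proteases, fell by 0.46 (SE 0.11, adjusted p = 0.0142). Against control all 10 tested were higher as deposited, where 84.3% of all genes were. Of those deposited calls, that of Ctsc (0.49, adjusted p = 0.0246) was lost without any 1 of the 3 control libraries, papain+MSC-Exos replicate 1 or papain+MSC-Exos replicate 2 (adjusted p up to 0.136), and that of Ctsl (0.43, adjusted p = 0.0373) without control replicate 1, control replicate 3, papain replicate 3, papain+MSC-Exos replicate 1 or papain+MSC-Exos replicate 2 (adjusted p up to 0.178), with limma. After scaling Ctsz, cathepsin X, a carboxypeptidase of macrophages and other cells, was higher in papain+MSC-Exos by 0.51 (adjusted p = 0.00770), where 12.3% of all genes were higher, while Ctsl, cathepsin L, fell by 0.51 (adjusted p = 0.0240) and Ctsc fell by 0.39 (adjusted p = 0.0274), so for those 2 the direction turned with the scale. Without papain replicate 3 or papain+MSC-Exos replicate 2 the scaled Ctsc call against papain was lost. Of the scaled calls against control, that of Ctsc was lost without any 1 of the 3 control libraries, papain+MSC-Exos replicate 1 or papain+MSC-Exos replicate 2, and that of Ctsl without control replicate 1, control replicate 2, papain+MSC-Exos replicate 1 or papain+MSC-Exos replicate 2. The Ctsz call held in all 9 such fits.

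The balance of target and inhibitor transcripts can be read without a choice of scale, as a ratio within each library. Cst3 per Ctsb, cathepsin B, a gene singled out after its values were seen, was 1.70, 1.70 and 2.27 in papain+MSC-Exos libraries, 2.61, 3.09 and 2.77 in papain libraries and 2.85, 2.64 and 3.02 in control libraries. Every exosome library lay below every other library, and papain and control overlapped. Cst3 per Ctsz was 4.49, 4.92 and 6.50 in papain+MSC-Exos libraries, 7.97, 9.29 and 7.70 in papain libraries and 9.29, 10.1 and 9.30 in control libraries, with the exosome libraries lowest again. The pattern was not shared by all targets. Cst3 per Ctsl was 2.51 ± 0.226 in papain+MSC-Exos, 2.67 ± 0.150 in papain and 2.21 ± 0.257 in control libraries, and Cst3 per Ctss was 3.41 ± 0.568, 3.37 ± 0.576 and 4.98 ± 0.589 (SD, n = 3 each). Summed over the list, Cst3 plus Cstb per protease FPKM was 0.582 ± 0.0631, 0.692 ± 0.0426 and 0.745 ± 0.0370 in the same order.

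The same was tested by dividing every gene by the Cst3 of its own library and refitting all 12585 genes with limma, a test added after seeing the data. In papain against control 0 of 10 proteases were called and none lower, where 3.5% of genes were called higher. With exosomes added to papain 5 of 10 rose relative to Cst3 (Ctsb, Ctsz, Ctsf, Lgmn and Ctso) and none fell, where 42.5% of all genes rose. Ctsz rose by 0.63 (SE 0.13, adjusted p = 0.00425) and Ctsb by 0.58 (SE 0.13, adjusted p = 0.00497). Between papain+MSC-Exos and control 6 of 10 rose (Ctsz, Lgmn, Ctsb, Ctss, Ctsf and Ctsh) and none fell, where 40.1% of all genes rose. Ctsz was higher by 0.82 (SE 0.13, adjusted p = 0.00163), Lgmn, legumain, by 0.60 (SE 0.12, adjusted p = 0.00355) and Ctsb by 0.59 (SE 0.13, adjusted p = 0.00512). Divided by Cstb in place of Cst3, 0, 5 and 6 proteases were called higher in the 3 comparisons, where 2.11%, 47.6% and 35.6% of all genes were. Against papain the 5 of 10 lie close to the share of all genes, and against control the 6 of 10 lie above it, a difference that was not tested. Relative to Cst3 the median of the list, 0.19 against papain and 0.34 against control, stands beside 0.28 and 0.27 for all genes. The counts fell to 3 in some fits with 1 library left out: without papain replicate 3, papain+MSC-Exos replicate 1 or papain+MSC-Exos replicate 2 in the comparison with papain, and without control replicate 3, papain+MSC-Exos replicate 1 or papain+MSC-Exos replicate 2 in that with control. In papain against control 1 protease was called without papain replicate 1, papain+MSC-Exos replicate 2 or papain+MSC-Exos replicate 3. Ctsb and Ctsz stayed called with any library left out in both exosome comparisons.

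**Figure D4:**
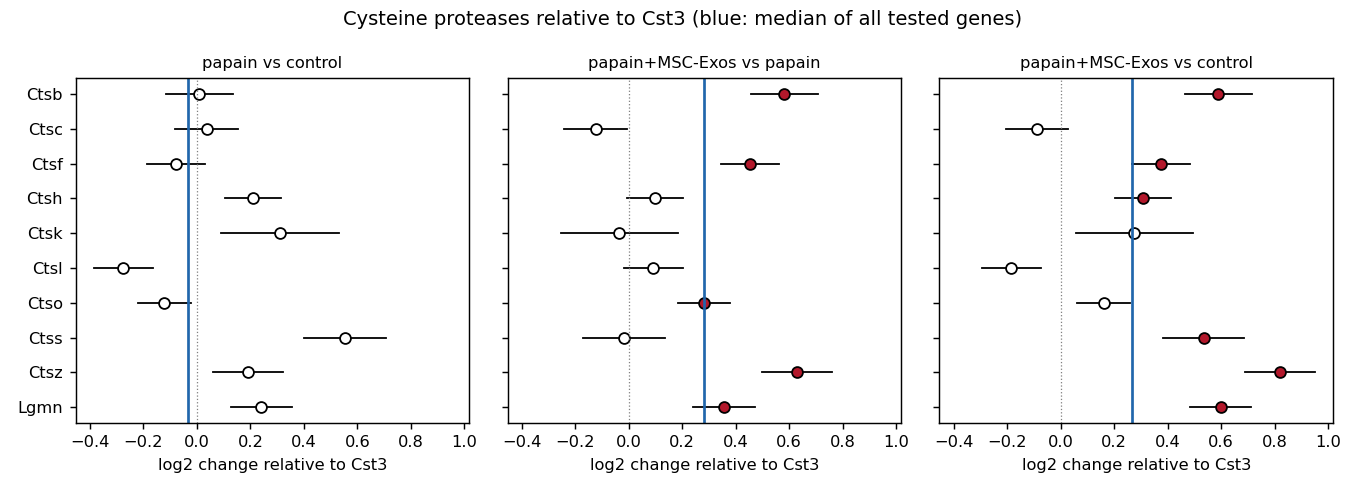
Change of 10 cysteine proteases relative to the Cst3 of the same library (x axis, difference of mean log2) in the 3 comparisons; lines are ± SE, filled points have an adjusted p below 0.05 and the blue line is the median of all tested genes. Ctsb and Ctsz lie right of the blue line in both exosome comparisons, and Ctsc and Ctsl left of it.

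Of 25 other genes of the cystatin superfamily, 17 were in the table, 7 of them at 0 in all libraries. With the filter 2 were tested: Fetub, fetuin-B, a secreted inhibitor of astacin-type metalloproteases, and Kng2, a kininogen, a plasma protein with cystatin domains that is the precursor of bradykinin. Unlike Cst3 and Cstb, both rose in papain against control on both scales. With no filter 10 of the list were tested. There 2 were higher as deposited and 3 after scaling, where 1.04% and 6.11% of all genes were called. Against control, papain+MSC-Exos had 3 and 2 higher, where 61.3% and 14.4% were called. Kng1, named after its values were seen, had 0.208 to 0.453 FPKM in papain+MSC-Exos, 0.196 to 0.835 in papain and 0.0471 to 0.0683 in control libraries. Fetub had 453, 391 and 284 FPKM in papain+MSC-Exos libraries, 261, 142 and 289 FPKM in papain libraries and 71.9, 78.4 and 66.1 FPKM in control libraries, and all papain and exosome libraries were above all controls. Papain minus control was 1.60 as deposited (SE 0.24, adjusted p = 3.67e-04) and 1.36 after scaling (SE 0.14, adjusted p = 5.27e-04). Its rank among all genes was 73 to 98 with papain+MSC-Exos, 98 to 156 with papain and 266 to 317 in controls, so in the papain and exosome libraries Fetub stood above Cst3. Fetub per Cst3 was 2.40 ± 0.311, 1.84 ± 0.325 and 0.721 ± 0.0660 in the same order (SD, n = 3 each), and relative to Cst3 the papain minus control difference was 1.33 (SE 0.15, adjusted p = 5.27e-04). Papain+MSC-Exos minus papain was 0.74 as deposited (adjusted p = 0.0139) and 0.027 after scaling (adjusted p = 0.902), and the deposited call was lost without papain replicate 2, at 0.43, or papain+MSC-Exos replicate 1, at 0.59. It was also lost with no filter on low values (0.74, adjusted p = 0.0520 with limma) and with a common sum that leaves out the 15 most abundant genes (0.37, adjusted p = 0.0897).

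Kng2 had 7.55, 7.44 and 5.43 FPKM in papain+MSC-Exos libraries, 6.96, 5.69 and 8.55 FPKM in papain libraries and 2.17, 1.76 and 1.77 FPKM in control libraries. As deposited, exosome and papain libraries overlapped and lay above all controls, and after scaling the exosome libraries, at 4.32, 4.66 and 4.62, lay between the papain libraries at 6.51, 8.02 and 8.80 and the controls at 2.84, 2.31 and 2.32. Papain minus control was 1.46 as deposited (SE 0.19, adjusted p = 7.74e-05) and 1.33 after scaling (SE 0.11, adjusted p = 1.61e-04). Papain+MSC-Exos minus papain was -0.044 as deposited (adjusted p = 0.840) and after scaling Kng2 fell by 0.66 (SE 0.11, adjusted p = 0.00432), a fall that was called with any single library left out. Papain+MSC-Exos minus control stayed above 0 on both scales, at 1.42 as deposited and 0.67 after scaling (adjusted p = 0.00355). The summed neutrophil and macrophage markers given above were also higher in papain than in control libraries on both scales, and their part in the Fetub and Kng2 values was not tested.

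**Figure D5:**
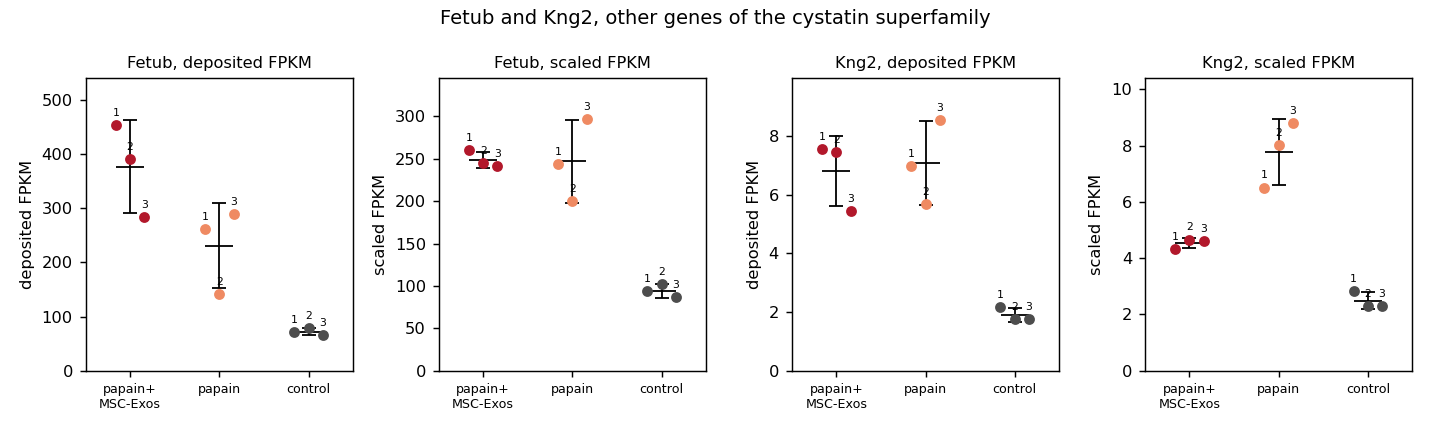
Fetub and Kng2 in each library as deposited FPKM and as scaled FPKM (y axes from 0), with papain+MSC-Exos left, papain in the middle and control right; points are libraries numbered by replicate and bars the mean ± SD. Every papain and papain+MSC-Exos library is above every control library for both genes in all 4 panels.

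The genes that followed Cst3 most closely over the 9 libraries, by the root mean square difference of centred log2 scaled values, were Bnip3l, a mitophagy receptor (0.0380), Sec23a, a coat protein of transport vesicles (0.0385), and Impad1, a phosphatase of the Golgi (0.0431). Those closest to Cstb were Uqcrq, a subunit of respiratory complex III (0.0601), Eapp (0.0605) and Nop16, a nucleolar protein (0.0625). Cst3 and Cstb differed from each other by 0.0878 on this measure. The genes named were picked as the closest of all those tested, so this larger value does not show that the pair is unlike.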

How the data were processed

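The authors deposited 1 table of FPKM values for 21930 Ensembl genes in 9 libraries, 3 per group. Per the submitters' processing notes the tools were fastp 0.19.4, HISAT2 and StringTie with the build mm10; for the annotation, strand setting and other versions, nothing is given in the sources used here. Groups came from the titles. Symbols (21817 identifiers matched), gene models and sequences came from GENCODE M21 (GRCm38), using the longest transcript of each gene that holds a coding sequence. FPKM keeps no library total, so depth is a rough estimate and no count test was run.

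A limma (3.58.1, R 4.3.3) model with a trended prior was fitted to log2(FPKM + 1) of all 9 libraries, with Benjamini-Hochberg adjustment (threshold 0.05), for genes of at least 1 FPKM in at least 3 libraries, as deposited and after median-of-ratios scaling on the 16486 genes above 0 in every library. A fold on this scale understates changes of low genes. The limma fit, without scaling or filter, was run on simulated data. The scaling, the filter and the division by Cst3 were not tested that way. Same-numbered libraries of different groups did not deviate together (correlations of -0.312 to 0.141 over 9 pairs), so the numbers were not used as pairs. Named genes were all 7 members, up to 3 called genes of smallest scaled p per comparison from the protease and other cystatin lists, the 2 most abundant markers of each list and the 3 genes most like each tested member; other proteases, markers and stefin genes were named after their values were seen. The members and lists were chosen with earlier results of these data known.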

Additional observations from a re-analysis of the deposited data

How the results depend on the processing

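The direction of Cst3 and Cstb with exosomes turned with the scaling. In papain+MSC-Exos against papain 0 members were called as deposited, 2 (both lower) after median-of-ratios scaling and 1 (Cst3, higher by 0.73, adjusted p = 0.0264 with limma) after rescaling to a common sum; in papain+MSC-Exos against control the 2 called higher became 2 called lower after median-of-ratios scaling. With a common sum that leaves out the 15 most abundant genes, an alternative chosen after seeing the data, the count against control was 0. Median-of-ratios values and values without those 15 genes were -0.36 and -0.020 for Cst3, -0.46 and -0.12 for Cstb and -0.46 and -0.14 for Ctsc against papain, and -0.33 and -0.063 for Cst3, -0.35 and -0.087 for Cstb, -0.39 and -0.15 for Ctsc and -0.51 and -0.25 for Ctsl against control. In papain against control Cst3 was -0.042 without the 15 genes and, scaled, -0.00035 (without papain replicate 3) to 0.079 with 1 library left out. Kng2 against papain was 0.30 with a common sum and -0.17 to 0.090 with 1 library left out (above 0 without papain replicate 3 or papain+MSC-Exos replicate 3), and scaled Fetub was -0.11 to 0.17 with 1 left out (below 0 without papain replicate 2 or papain+MSC-Exos replicate 1).

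After scaling, the count of called members against papain was 1 with only the 2 groups in the fit and 0 to 2 with 1 library left out. Against control it was 1 with no filter, 0 with the replicate block (adjusted p = 0.0544 for Cst3 and 0.0739 for Cstb with limma) and 0 to 2 with 1 library left out. The block changed no other count of called members. Relative to Cst3 the proteases called with 1 library left out were 0 to 1 in papain against control, 3 to 5 in papain+MSC-Exos against papain and 3 to 6 in papain+MSC-Exos against control. The cause of these losses was not tested. Members below the filter were tested only in the fit with no filter, except Stfa3, which was not tested, and their alternatives were not run. Few fragments and the 1 added before the log2 both limit what the values of Cst7 and the stefin A copies can show.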
